A study of Homo sapiens with 9 samples.

Results

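The genes described here are 28 genes of cholesterol synthesis, sensing, transport and storage, taken by symbol from the 17911 genes in a table of RNA sequencing counts. All 28 were found in the table and all passed the filter on low counts, the smallest single count of any of them being 161. By role they comprise 8 genes of the mevalonate and isoprenoid steps, 11 genes of the steps from squalene to cholesterol, 4 genes of SREBP2 and the proteins that control it, and 5 genes of uptake, transport and storage. The list was drawn up by pathway, with earlier results of these data known.

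The labels describe 9 cultures of MDA-MB-231, an established human line from a triple-negative breast cancer, as 3 capsules, 3 small spheroids and 3 large spheroids. All 9 carry the same cell type entry (WT) and an identical treatment text, which names liquid overlay, 5% Matrigel, trastuzumab (an antibody against ERBB2) and 96 h of incubation, and all were grown in RPMI with 10% fetal bovine serum. The capsule columns of the count table matched 1 sample each. The other 6 columns form 2 sets of 3, named L.O and Sph.WT, and their names give no spheroid size, so both sets were taken as spheroids and no size was assigned to either. The column names of the capsule and L.O libraries also carry a processing suffix that those of the Sph.WT libraries lack, so a difference in processing and a difference between the sets cannot be told apart. Nothing in the labels says that replicates were separate cultures, so p-values measure the spread between these libraries, which may be technical.

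Cells make cholesterol from acetyl-CoA by way of mevalonate, isoprenoid diphosphates and squalene, and take it up from lipoproteins through endosomes and lysosomes. When sterols in the endoplasmic reticulum are low, SCAP escorts the transcription factor SREBP2 to the Golgi for cleavage, and SREBP2 then activates most genes of the pathway. When sterols are high, INSIG1 and INSIG2 hold SCAP back, LXR receptors activate cholesterol efflux genes, and excess cholesterol is esterified for storage.

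Total counts ranged from 13212665 to 13735221 in the capsule libraries, 15525725 to 15988167 in the L.O libraries and 16605098 to 33263076 in the Sph.WT libraries. Before any result, the cell line label was checked against 2 marker lists. Of 25 genes typical of MDA-MB-231, 25 reached 10 CPM (counts per 1000000 counts) in every Sph.WT library, against 12 in every L.O library and 9 in every capsule library, and NNMT, which encodes a methyltransferase abundant in MDA-MB-231, had no count in any capsule or L.O library. The hyaluronan receptor CD44 was at 955 to 1080.0 CPM in the Sph.WT libraries, 4.69 to 5.24 in the L.O libraries and 1.90 to 2.49 in the capsule libraries. Of 10 measured genes typical of HEK293, an embryonic kidney line with neuronal features, 8 reached 10 CPM in every capsule library, 9 in every L.O library and 1 in every Sph.WT library. The neurofilament gene NEFM was at 406 to 439 CPM in the capsule libraries, 253 to 328 in the L.O libraries and 0 to 0.0368 in the Sph.WT libraries. The capsule and L.O libraries therefore go against the MDA-MB-231 label, and "capsule libraries" below means the libraries labelled capsule. Across all 17911 genes, which are not independent replicates, Spearman's rho was 0.978 to 0.987 between capsule and L.O libraries and 0.755 to 0.777 between either of them and the Sph.WT libraries. Summed markers of other cell types were low in the capsule and L.O libraries: 6.63 to 8.47 and 10.2 to 11.4 CPM for 3 immune genes, 2.33 to 3.43 and 3.46 to 4.75 CPM for 5 stromal genes, and 0.490 to 0.954 and 1.34 to 2.27 CPM for 3 endothelial genes. In the Sph.WT libraries the sums were 54.9 to 69.0, 176 to 221 and 7.01 to 12.6 CPM. In such bulk samples fewer cells of a type and less RNA per cell cannot be told apart.

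**Figure D1:**
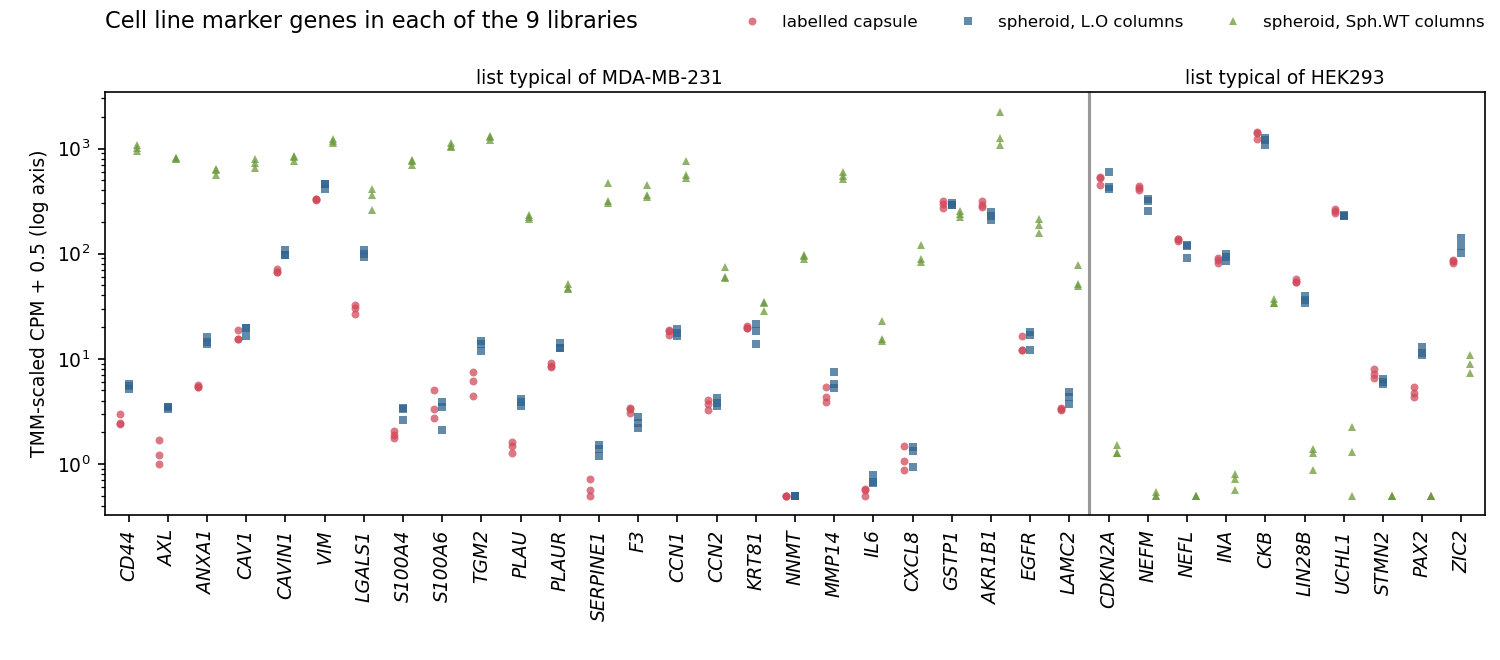
Points give each library's level of 25 genes typical of MDA-MB-231 and 10 typical of HEK293, as CPM scaled by TMM plus an offset of 0.5 on a log axis, coloured by set. The Sph.WT libraries are high for nearly all genes of the first list and low for the second, and the capsule and L.O libraries lie close together in both.

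Promoter sequences from RefSeq (GRCh38.p14) were listed for 25 of the 28 genes, and the 250 bases before each start were searched on both strands. The search covered CCAAT, the box bound by NF-Y, GGGCGG, the box bound by Sp1, and forms of the sterol element that SREBPs bind (TCACNCCAC and the overlapping CACCCCAC). A CCAAT box was present in 20 of 25 (80%), against 40.4% of the 13502 genes of the table with a listed promoter, and GGGCGG in 24 of 25 (96%), against 70.3%. TCACNCCAC was present in 1 (4%), against 1.10%, and CACCCCAC in 1 (4%), against 3.36%. The shorter CACNCCAC, chosen after these results were seen, was present in 4 (16%: IDI1, INSIG1, SC5D and SREBF2), against 6.66%. These matches describe letters in the window only. The stretches below hold the CCAAT and TCACNCCAC matches in HMGCS1, INSIG1, MSMO1 and SREBF2. HMGCS1 and INSIG1 had the largest differences between capsule and L.O libraries, and MSMO1 the largest between the spheroid sets. SREBF2 was the only 1 of the 25 genes searched with a TCACNCCAC match. The stretches are written 5′ to 3′ on the strand of the gene, with CCAAT (or its reverse complement ATTGG) and TCACNCCAC in capitals.
HMGCS1: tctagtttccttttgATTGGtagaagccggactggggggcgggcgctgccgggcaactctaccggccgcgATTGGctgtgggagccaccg
INSIG1: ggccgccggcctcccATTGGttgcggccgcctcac
MSMO1: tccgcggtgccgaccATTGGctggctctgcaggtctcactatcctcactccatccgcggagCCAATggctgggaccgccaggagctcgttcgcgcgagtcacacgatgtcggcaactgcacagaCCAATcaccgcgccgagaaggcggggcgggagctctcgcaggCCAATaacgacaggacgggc
SREBF2: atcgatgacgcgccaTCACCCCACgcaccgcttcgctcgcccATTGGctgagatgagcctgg
The HMGCS1 stretch is chr5:43313493-43313582 on the minus strand, the INSIG1 stretch chr7:155297693-155297727, the MSMO1 stretch chr4:165327469-165327654 and the SREBF2 stretch chr22:41832957-41833018, the last 3 on the plus strand. Each lies upstream of the gene. On the same assembly HMGCS1 runs from 43287470 to 43313412 on chromosome 5, INSIG1 from 155297878 to 155310235 on chromosome 7, MSMO1 from 165327669 to 165343164 on chromosome 4 and SREBF2 from 41833105 to 41907305 on chromosome 22. HMGCS1 has 2 CCAAT boxes in its stretch, INSIG1 has 1, MSMO1 has 4 and SREBF2 has 1 beside the TCACNCCAC match.

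All 28 genes were at 10 CPM or more in every library. Levels are given as CPM scaled by TMM, the scaling of the fold changes. Summed over the 28 genes, the level was 2738 ± 26.6 CPM (SD, n = 3) in the capsule libraries, 2093 ± 22.7 in the L.O libraries and 4577 ± 255 in the Sph.WT libraries. The 3 ranges do not overlap. The median gene was at 77.0 CPM in the capsule libraries, 59.0 in the L.O libraries and 131 in the Sph.WT libraries. To compare genes with each other, levels were divided by the length of each gene's joined exons. Per kilobase, the highest levels in the capsule libraries were those of INSIG1 (56.2 ± 2.68 CPM per kilobase), the isoprenoid enzyme FDPS (51.8 ± 1.08) and DHCR7, the reductase of the last step (51.5 ± 3.32), and DHCR7 overlapped both others. In the L.O libraries FDPS (41.4 ± 2.48), DHCR7 (38.1 ± 0.885) and PMVK, the phosphomevalonate kinase (34.6 ± 2.60), were highest. In the Sph.WT libraries the order was NPC2, which hands cholesterol from the lysosome lumen to its membrane (140.3 ± 3.92), MSMO1, the methylsterol oxidase (100.2 ± 12.2), DHCR7 (85.3 ± 8.80) and CYP51A1, the lanosterol demethylase (80.3 ± 9.79). The ranges of MSMO1, DHCR7 and CYP51A1 all overlapped each other there. Among the lowest levels per kilobase were those of MYLIP (4.16 ± 0.393), HSD17B7, a sterol ketoreductase (4.33 ± 0.319), and INSIG2 (4.35 ± 0.568) in the capsule libraries, which did not differ beyond their spread. HSD17B7 was lowest in the L.O libraries (3.41 ± 0.211), and in the Sph.WT libraries HSD17B7 (6.53 ± 0.830), MVK (6.98 ± 0.555) and MYLIP (7.40 ± 0.245) overlapped.

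**Figure D2:**
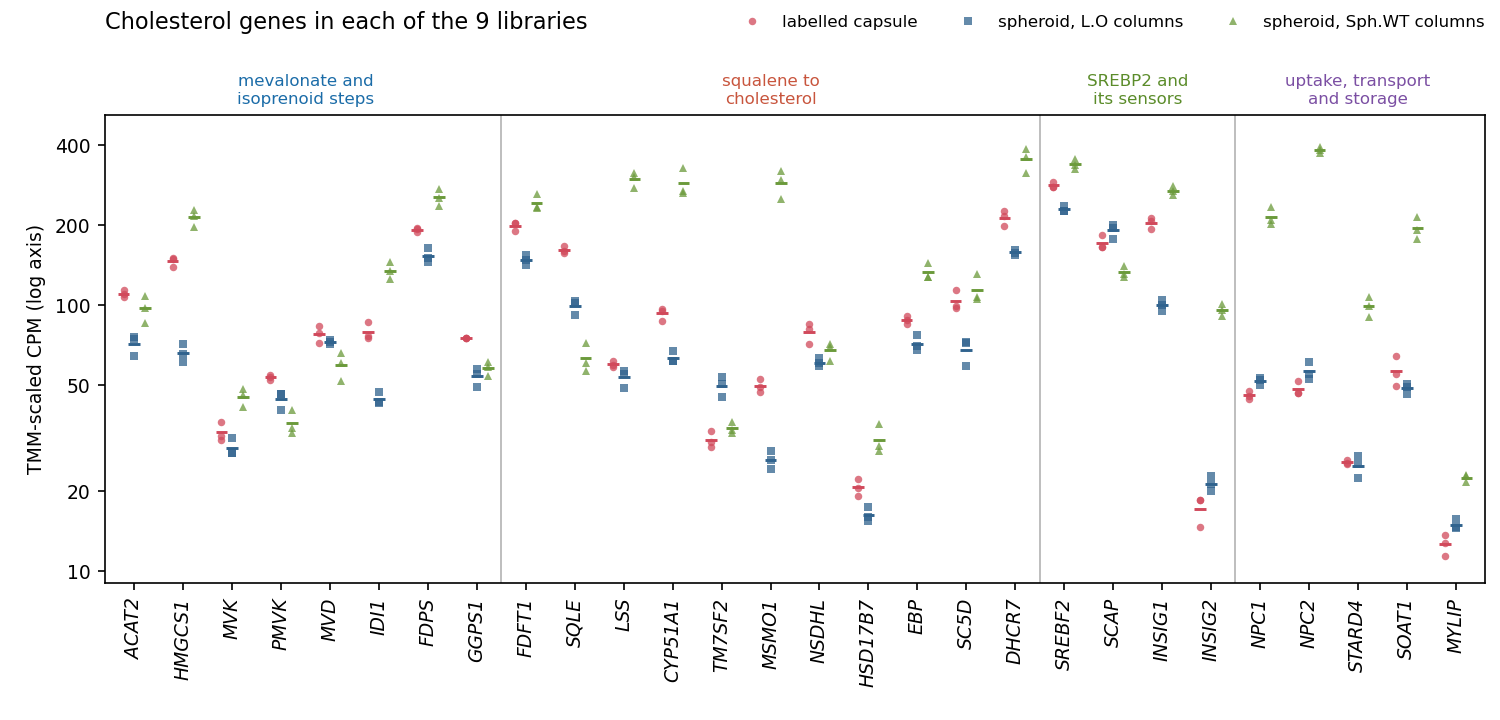
Points give the TMM-scaled CPM (log axis) of the 28 genes in each of the 9 libraries and short lines the mean of each set of 3. Most synthesis genes are lowest in the L.O libraries. The genes of uptake, transport and storage are highest in the Sph.WT libraries and differ less between the capsule and L.O libraries.

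The labels set capsules beside spheroids, so the 3 capsule libraries were first compared with all 6 spheroid libraries by edgeR's quasi-likelihood test with Benjamini-Hochberg adjustment over 16985 genes, calling a gene at an adjusted p under 0.05. Both genes that passed were higher in the capsule libraries, SQLE and GGPS1, 2 of 28 (7.14%) beside 3.76% of all genes. SQLE, the squalene epoxidase that makes the first oxygenated step toward sterols, was at 167, 161 and 157 CPM in the capsule libraries. Its spheroid values ran from 56.8 through a median of 81.9 to 104 CPM, so the capsule libraries lay above all 6. The log2 fold change was 0.99 ± 0.21 (SE), adjusted p = 0.0427. GGPS1, which makes the geranylgeranyl diphosphate used to prenylate proteins, was at 75.3, 75.4 and 75.6 CPM in the capsule libraries and ran from 49.2 through 56.5 to 61.3 CPM in the spheroid libraries. It too lay above all 6, with a log2 fold change of 0.43 ± 0.10 and adjusted p = 0.0493.

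Both calls were marginal. Leaving out any 1 of the 9 libraries ended that of GGPS1 (adjusted p = 0.0633 to 0.229), and leaving out any 1 but L.O replicate 1 ended that of SQLE (0.0419 to 0.207 over all 9). The estimated spread in this fit was a biological coefficient of variation of 66.0%, against 7.73% when the 2 spheroid sets had means of their own. For 17 genes the sign of the difference depended on the spheroid set used, and 11 of these, among them HMGCS1, INSIG1, MSMO1 and CYP51A1, passed the test in opposite directions in the next comparisons. The following results therefore come from 1 fit with a mean for each set of 3 libraries, and its comparisons share libraries with each other.

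Against the L.O libraries, most cholesterol synthesis genes were moderately higher in the capsule libraries. Of the 28 genes 17 were higher (60.7%, beside 22.5% of all genes) and 3 lower (10.7%, beside 23% of all genes). In all 20 passed the test (71.4%), beside 45.5% of all genes. The median log2 fold change was 0.31 for the 28 genes and -0.02 for all genes. At 2-fold or more 2 genes passed, HMGCS1 and INSIG1, 2 of 28 beside 6.63% of all genes in either direction. Both were higher, beside 148 of all 16985 genes higher by that much. None of the 28 was lower by that much, beside 978 of all genes. All 3 capsule libraries were above all 3 L.O libraries for 18 of the 28 and below them for 5, so 82.1% of the genes lay apart, beside 54.8% of all genes. Scaled by library totals alone, 13 were higher and 6 lower. That scaling moved the median of all genes to -0.17, and the share of higher calls among all calls from 49.5% to 27.8%.

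**Figure D3:**
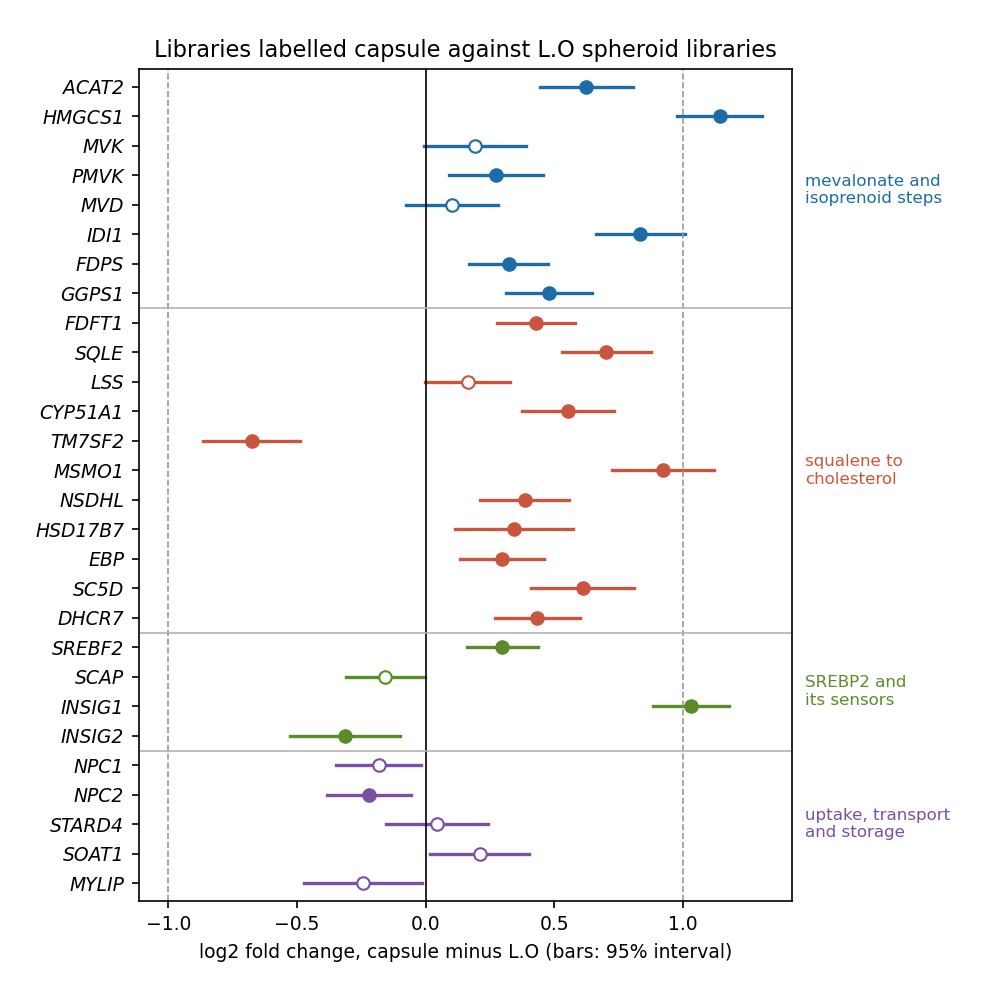
Points give the log2 fold change of each gene between capsule and L.O libraries and bars its 95% interval, with filled points for genes that passed the test and dashed lines at 2-fold. Genes of both synthesis groups lie mostly to the right of 0 and those of uptake, transport and storage around or left of it.

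**Figure D4:**
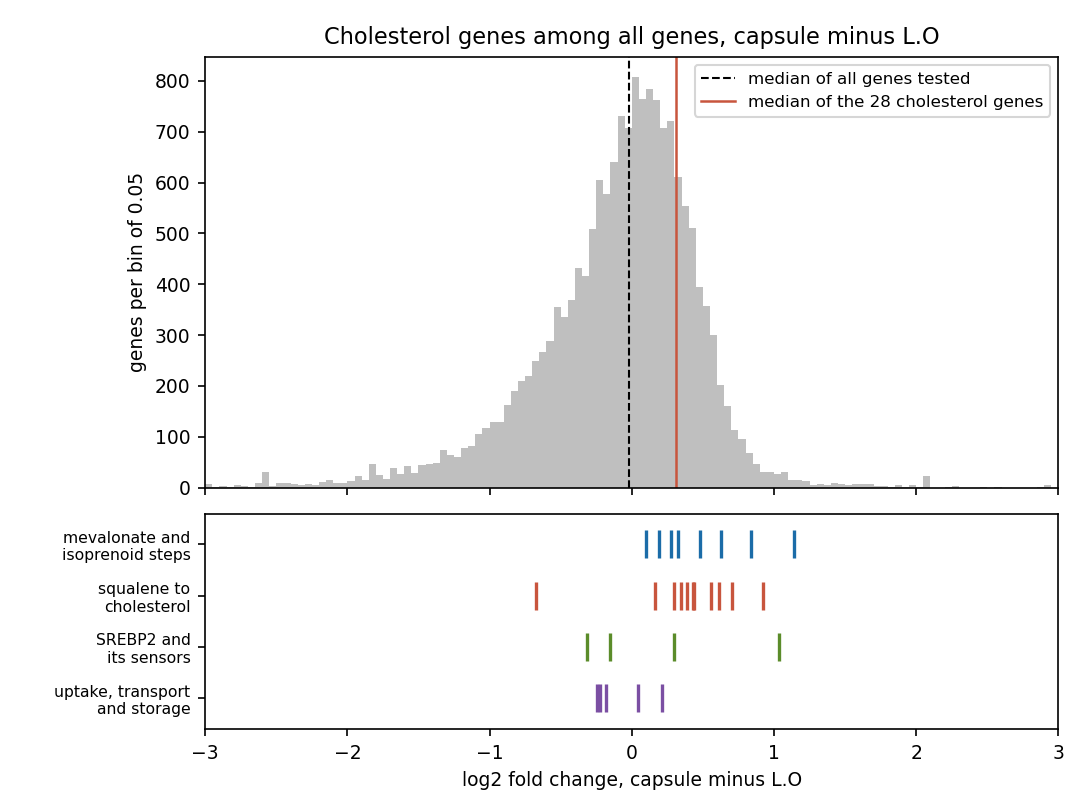
The upper panel counts all 16985 genes by their log2 fold change between capsule and L.O libraries (76 genes beyond 3 in either direction are not shown), and the lower panel marks each of the 28 genes by role. The median of the 28 (0.31) lies to the right of that of all genes (-0.02).

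In the mevalonate and isoprenoid steps 6 of 8 genes were higher in the capsule than in the L.O libraries, with a median log2 fold change of 0.40. HMGCS1, an early synthase of the pathway, was at 149, 139 and 151 CPM in the capsule libraries and 71.8, 65.7 and 61.3 CPM in the L.O libraries. Every capsule library lay far above every L.O library. Its level was 2.21-fold higher (log2 1.14 ± 0.08, SE, adjusted p = 7.6e-10), and its stretch of promoter holds the pair of CCAAT boxes shown above. IDI1, the isomerase that turns isopentenyl diphosphate into its reactive form, was at 76.4, 75.1 and 86.4 CPM against 47.2, 43.1 and 43.1 CPM. These ranges lay well apart, with a log2 fold change of 0.83 ± 0.08 (adjusted p = 8.8e-08). ACAT2, the acetyl-CoA acetyltransferase of the first step, was at 114, 111 and 108 CPM against 74.7, 64.4 and 76.4 CPM, again with no overlap (log2 0.63 ± 0.09, adjusted p = 6.3e-06). Of the joined exons of ACAT2, 52.3% overlap genes of the opposite strand, among them SOD2 and TCP1, so that its counts are uncertain. GGPS1 (log2 0.48 ± 0.08), FDPS (0.32 ± 0.07) and PMVK (0.27 ± 0.09) were also higher. MVK, the mevalonate kinase, at 33.3 ± 2.80 against 29.1 ± 2.23 CPM (SD, n = 3), and MVD, the decarboxylase that forms isopentenyl diphosphate, at 78.1 ± 5.67 against 72.7 ± 1.18 CPM, did not pass the test.

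Of the 11 genes from squalene to cholesterol, 9 were higher in the capsule libraries, 1 was lower and 1 did not pass, with a median log2 fold change of 0.43. MSMO1, which removes methyl groups from early sterols, was at 49.3, 47.0 and 52.6 CPM in the capsule libraries and 26.2, 28.2 and 24.2 CPM in the L.O libraries. Its sets were far apart, and the level was 1.89-fold higher (log2 0.92 ± 0.10, adjusted p = 1.5e-07). SQLE was at 104, 102 and 91.8 CPM in the L.O libraries, all below its capsule values above, a log2 fold change of 0.70 ± 0.08 (adjusted p = 8.3e-07). SC5D, the sterol desaturase, was at 99.2, 98.02 and 114 CPM against 71.9, 59.0 and 73.0 CPM. The lowest capsule library again lay above the highest L.O library (log2 0.61 ± 0.10, adjusted p = 2.6e-05). Smaller rises were measured for CYP51A1 (log2 0.55 ± 0.09), DHCR7 (0.44 ± 0.08), FDFT1, the squalene synthase (0.43 ± 0.07), NSDHL, a sterol dehydrogenase (0.39 ± 0.08), HSD17B7 (0.34 ± 0.11) and EBP, the sterol isomerase (0.30 ± 0.08). TM7SF2, a sterol reductase, moved the other way. It was at 30.5, 33.8 and 29.3 CPM in the capsule libraries and 45.1, 50.7 and 53.7 CPM in the L.O libraries, lower in all capsule libraries, with a log2 fold change of -0.68 ± 0.09 (adjusted p = 3.9e-06). LSS, which closes squalene epoxide into lanosterol, was at 60.1 ± 1.43 against 53.6 ± 4.10 CPM (SD, n = 3) and did not pass (adjusted p = 0.0985).

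Among SREBP2 and its sensors, INSIG1 and SREBF2 were higher in the capsule libraries, INSIG2 was lower and SCAP did not pass. INSIG1, the sterol-sensitive anchor of SCAP and itself a target of SREBP2, was at 214, 194 and 207 CPM in the capsule libraries and 95.5, 101 and 105 CPM in the L.O libraries. The sets were far apart, with a 2.05-fold difference (log2 1.03 ± 0.07, adjusted p = 7.5e-10). Its relative INSIG2, whose product has the same anchoring role, was at 18.5, 14.6 and 18.5 CPM against 22.8, 19.99 and 21.3 CPM, slightly lower in every capsule library (log2 -0.31 ± 0.10, adjusted p = 0.0162). SREBF2, which encodes SREBP2, was at 279.6, 290.4 and 279 CPM against 227, 237 and 227 CPM, without overlap (log2 0.30 ± 0.07, adjusted p = 9.8e-04). SCAP was at 172 ± 10.1 against 192 ± 11.9 CPM (SD, n = 3), and its ranges overlapped (adjusted p = 0.0892).

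In the group of uptake, transport and storage 1 of 5 genes passed the test between capsule and L.O libraries, with a median log2 fold change of -0.18. NPC2 was at 51.8, 46.8 and 46.9 CPM in the capsule libraries and 55.3, 52.9 and 61.3 CPM in the L.O libraries. Every capsule library was below every L.O library by a small margin (log2 -0.22 ± 0.08, adjusted p = 0.0268). NPC1, the membrane protein that takes cholesterol from NPC2 out of the lysosome, was at 45.8 ± 1.61 against 52.0 ± 1.74 CPM (SD, n = 3). STARD4, a sterol carrier of the cytosol, was at 25.7 ± 0.490 against 24.9 ± 2.40 CPM, and SOAT1, which esterifies cholesterol for storage, at 56.5 ± 7.27 against 48.8 ± 2.08 CPM. MYLIP, the ubiquitin ligase that degrades lipoprotein receptors and a target of LXR, was at 12.6 ± 1.19 against 14.9 ± 0.658 CPM. The 95% intervals of these log2 fold changes were -0.35 to -0.02 for NPC1, -0.15 to 0.24 for STARD4, 0.02 to 0.40 for SOAT1 and -0.47 to -0.01 for MYLIP.

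The list typical of MDA-MB-231 moved between these libraries too. Of its 25 genes, 12 were lower in the capsule than in the L.O libraries (48%, beside 23% of all genes). By 2-fold or more 7 were lower, beside 978 of all 16985 genes. The summed level of the list was 1073 to 1171 CPM in the capsule libraries and 1286 to 1326 CPM in the L.O libraries, with NNMT at 0 in both. Of the 10 genes typical of HEK293, 4 were higher (40%, beside 22.5% of all genes) and 2 lower (20%, beside 23%). Their sums overlapped, at 2726 to 3022 CPM in the capsule and 2408 to 2728 CPM in the L.O libraries. The part of both lists in the differences of the cholesterol genes was not tested. Of the 20 calls between capsule and L.O libraries, 16 were made the same way whichever library was left out. The call of HSD17B7 was lost without capsule replicate 1 or L.O replicate 2 (adjusted p up to 0.0758), and that of PMVK without L.O replicate 1 (0.0755). The call of INSIG2 was lost without capsule replicate 2 or L.O replicate 1 (up to 0.130), and that of NPC2 without capsule replicate 2, capsule replicate 3 or L.O replicate 3 (up to 0.133). Without capsule replicate 2 the only gene of the 28 still called lower was TM7SF2. Over all 16 alternative fits, 14 of the 20 calls held. Scaling by library totals ended the calls of PMVK, HSD17B7, EBP (log2 0.15, adjusted p = 0.125) and SREBF2 (log2 0.15, adjusted p = 0.0592).

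The 2 spheroid sets differed from each other in far more genes than the capsule and L.O libraries did. Between Sph.WT and L.O libraries 85.5% of all genes passed the test, so that a passing gene is the rule here. Of the 28 genes 21 were higher in the Sph.WT libraries (75%, beside 43.1% of all genes) and 5 lower (17.9%, beside 42.4%). At 2-fold or more 12 passed and all of them were higher, beside 25% of all genes higher and 27.2% lower by that much. The median log2 fold change was 0.83 for the 28 genes and 0.01 for all genes. The sets lay apart for 92.9% of the 28 genes, beside 85.7% of all genes. By library totals alone 17 were higher and 7 lower, the median of all genes moved to -0.45, and the share of higher calls among all calls went from 50.4% to 36.1%. ACAT2, higher in the Sph.WT libraries below, had a log2 fold change of -0.022 on that scale.

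**Figure D5:**
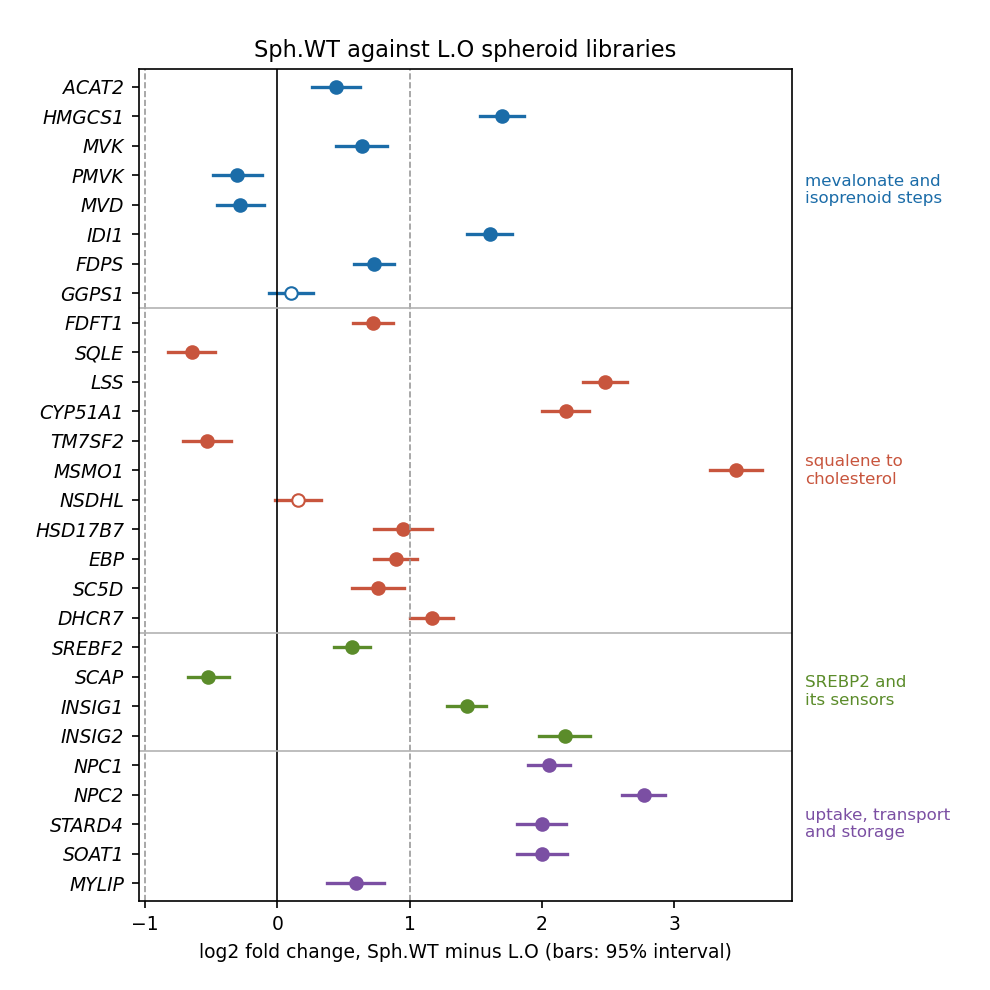
Points give the log2 fold change of each gene between Sph.WT and L.O libraries and bars its 95% interval, with filled points for genes that passed the test and dashed lines at 2-fold. MSMO1 has the largest value (3.47), all genes of uptake, transport and storage lie to the right of 0, and SQLE, TM7SF2, SCAP, PMVK and MVD lie to the left.

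From squalene to cholesterol 8 of 11 genes were higher in the Sph.WT libraries and 2 lower. MSMO1 was at 252, 321 and 296 CPM in the Sph.WT libraries beside its L.O values of 24.2 to 28.2 CPM. It was 11.1-fold higher (log2 3.47 ± 0.10, adjusted p = 1.1e-19), the widest gap of the 28 genes, and the stretch upstream of it shown above holds 4 CCAAT boxes. NSDHL and MVK hold 5 such boxes, and CYP51A1, INSIG2, NPC1, PMVK and SCAP hold none. A relation between the number of boxes and the fold change was not tested. LSS was at 304, 315 and 277 CPM, far above every L.O library (48.9 to 56.6 CPM), a 5.56-fold difference (log2 2.48 ± 0.08, adjusted p = 1.7e-18). CYP51A1 was at 265, 328 and 270.0 CPM against 61.7 to 67.4 CPM, also with no overlap (log2 2.18 ± 0.09, adjusted p = 9.4e-17). Overlapping annotated genes cover 83.2% of its joined exons, and 3 pseudogenes are named after it, so its level is uncertain. DHCR7 was 2.24-fold higher at 355 ± 36.6 CPM (SD, n = 3), and HSD17B7, EBP, SC5D and FDFT1 were higher with log2 fold changes between 0.72 and 0.95.

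SQLE stood against this pattern. It was at 56.8, 72.0 and 60.7 CPM in the Sph.WT libraries, below every L.O library (91.8 to 104 CPM), and 1.57-fold lower (log2 -0.65 ± 0.09, adjusted p = 2.5e-07). FDFT1 and LSS, which act just before and just after the epoxidase, were both higher. TM7SF2 was also lower, at 36.4, 33.9 and 33.02 CPM, with a log2 fold change of -0.53 ± 0.09 (adjusted p = 7.7e-06). Its 3 Sph.WT values lay below all L.O values. NSDHL did not pass (log2 0.15 ± 0.08, adjusted p = 0.0878).

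In the mevalonate and isoprenoid steps 5 of 8 genes were higher in the Sph.WT than in the L.O libraries and 2 lower. HMGCS1 was at 198, 228 and 217 CPM, all above the L.O values, a 3.24-fold difference (log2 1.70 ± 0.08, adjusted p = 2.5e-15). IDI1 was at 126, 145 and 135 CPM, likewise apart from the L.O values (log2 1.61 ± 0.08, adjusted p = 1.3e-14). These were the only genes of the group past 2-fold. FDPS (log2 0.73 ± 0.07), MVK (0.64 ± 0.09) and ACAT2 (0.44 ± 0.09) were higher by less. PMVK (-0.30 ± 0.09, adjusted p = 0.00321) and MVD (-0.28 ± 0.09, adjusted p = 0.00436), successive enzymes on mevalonate phosphates, were lower, and the call of MVD was lost in 1 of 6 fits that left out a library (without Sph.WT replicate 3, adjusted p = 0.0512). GGPS1 did not pass (adjusted p = 0.228).

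All 5 genes of uptake, transport and storage were higher in the Sph.WT libraries, with a median log2 fold change of 2.00. NPC2 was at 396, 386 and 375 CPM beside 52.9 to 61.3 CPM in the L.O libraries, a 6.82-fold difference (log2 2.77 ± 0.08, adjusted p = 1.7e-19). Its 3 values were close to each other and far from the other sets. NPC1 was at 203, 234 and 209 CPM (4.14-fold higher, adjusted p = 3.6e-17) and SOAT1 at 178, 215 and 192 CPM (3.996-fold, adjusted p = 1.4e-15). STARD4 was at 90.6, 108 and 99.5 CPM (3.99-fold, adjusted p = 1.1e-15), and MYLIP was 1.51-fold higher at 22.4 ± 0.742 CPM (SD, n = 3). None of these 5 ranges overlapped those of the L.O libraries.

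Among the sensors, INSIG2 was at 91.4, 96.3 and 101 CPM in the Sph.WT libraries, apart from 19.99 to 22.8 CPM in the L.O libraries (4.50-fold, adjusted p = 4.3e-16). INSIG1 was at 261, 281 and 269 CPM (2.70-fold, adjusted p = 8.2e-15) and SREBF2 at 338, 355 and 327 CPM (1.48-fold, adjusted p = 5.2e-08). Both lay above all L.O values. SCAP was at 141, 128 and 132 CPM, below all L.O values (178 to 201 CPM), with a log2 fold change of -0.52 ± 0.07 (adjusted p = 8.1e-07). Per kilobase, the ratio between the anchors was wide in the capsule and L.O libraries, where INSIG1 was at 56.2 ± 2.68 and 27.5 ± 1.25 CPM per kilobase and INSIG2 at 4.35 ± 0.568 and 5.41 ± 0.360, and narrower in the Sph.WT libraries, at 74.0 ± 2.74 and 24.4 ± 1.196.

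The marker lists separated the spheroid sets far more than the cholesterol genes did. Of the 25 genes typical of MDA-MB-231, 24 were higher (96%, beside 43.1% of all genes) and 1 lower in the Sph.WT libraries. The sums were 12427 to 14214 CPM there and 1286 to 1326 CPM in the L.O libraries. The 10 genes typical of HEK293 were all lower, beside 42.4% of all genes, with sums of 42.8 to 48.8 and 2408 to 2728 CPM. NEFL, STMN2 and PAX2 were at 0 in all Sph.WT libraries. Their part in the differences of the cholesterol genes was not tested.

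Set against the Sph.WT libraries, the capsule libraries had 6 of the 28 genes higher (21.4%, beside 43% of all genes). They had 19 lower (67.9%, beside 42%), and 25 passed in all (89.3%), beside 85% of all genes. This comparison shares its libraries with both others. By library totals alone 7 were higher and 14 lower, and the median of all genes moved from 0.03 to 0.35. The sign changed for 4 genes, of which FDFT1 (log2 0.023) and SREBF2 (0.049) had passed the test. SQLE was the only gene past 2-fold in the higher direction (2.55-fold, log2 1.35 ± 0.09, adjusted p = 7.0e-13), and PMVK, MVD, GGPS1, SCAP and NSDHL were higher by less. The call of NSDHL was lost in 3 of 9 fits that left out a library (adjusted p up to 0.0917), those without capsule replicate 1, capsule replicate 2 or Sph.WT replicate 3. At 2-fold or more 8 of the 28 were lower, beside 4278 of all 16985 genes, and 1 was higher, beside 4640. The 8 genes were NPC2 (log2 -2.99), MSMO1 (-2.54), INSIG2 (-2.48), LSS (-2.31), NPC1 (-2.23), STARD4 (-1.95), SOAT1 (-1.79) and CYP51A1 (-1.62). TM7SF2, SC5D and ACAT2 did not pass. For 17 genes the mean capsule level lay between those of the 2 spheroid sets, and for 11 of them, among them HMGCS1, IDI1, INSIG1, MSMO1 and DHCR7, it passed the test against both. SQLE, GGPS1, PMVK and NSDHL passed the test as higher in the capsule libraries than in either spheroid set.

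Of 52 other measured genes of the pathway, 17 were higher (32.7%, beside 22.5% of all genes) and 14 lower (26.9%, beside 23%) in the capsule than in the L.O libraries, with a median log2 fold change of 0.03. The largest falls were those of 3 ABC transporters of the list of LXR and efflux genes. ABCA1, an LXR target that loads cholesterol onto apolipoproteins, was at 1.61, 1.69 and 1.89 CPM in the capsule libraries and 6.49, 6.27 and 5.74 CPM in the L.O libraries, 3.55-fold lower (log2 -1.83 ± 0.19, adjusted p = 1.9e-07). ABCG1, which exports cholesterol to high-density lipoprotein, was at 4.70, 3.67 and 4.90 CPM against 12.1, 13.1 and 13.7 CPM (log2 -1.55 ± 0.18, adjusted p = 6.2e-07), and its relative ABCG4 had a log2 fold change of -1.10 ± 0.15. All 3 were at low levels and without overlap between the sets. In the list of LXR and efflux genes 4 of 5 were lower (median -1.10), and NR1H3, the LXR gene that did not pass, had a log2 fold change of -0.21 ± 0.11.

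The largest rises among the other genes were in the isoprenoid branch, where 7 of 13 were higher and 1 lower (median 0.35). RABGGTB, a subunit of the enzyme that prenylates Rab proteins, was at 144, 141 and 148 CPM in the capsule libraries and 97.1, 84.1 and 86.8 CPM in the L.O libraries, higher in every capsule library (log2 0.69 ± 0.07, adjusted p = 1.9e-07). PDSS1, which makes the side chain of ubiquinone, had a log2 fold change of 0.58 ± 0.13. PGGT1B, a subunit of an enzyme that prenylates other proteins, had one of 0.48 ± 0.10. Of the genes of SREBP processing and sterol-regulated degradation 5 of 11 were higher and 1 lower (median 0.09), and SREBF1, the gene of the related factor SREBP1, was at 66.7 ± 1.27 against 63.8 ± 8.46 CPM (SD, n = 3) and did not pass (adjusted p = 0.595). Among other receptors, carriers and ester hydrolases 5 of 15 were higher and 4 lower (median -0.09). ACLY, which supplies cytosolic acetyl-CoA, was at 788 ± 29.7 against 796 ± 70.8 CPM (log2 -0.01 ± 0.08, adjusted p = 0.896), and in its list of oxysterol and acetyl-CoA genes 4 of 8 were lower and the rest did not pass (median -0.39).

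Between Sph.WT and L.O libraries 33 of the 52 were higher (63.5%, beside 43.1% of all genes) and 11 lower (21.2%, beside 42.4%), with a median log2 fold change of 0.45. In all 84.6% of them passed, near the 85.5% of all genes. NCEH1, a cholesteryl ester hydrolase, was at 147, 192 and 161 CPM against 8.89, 7.62 and 8.37 CPM (20.1-fold, adjusted p = 1.8e-20). CYP27A1, the mitochondrial sterol hydroxylase, was at 36.0, 29.4 and 32.5 CPM against 2.52, 2.16 and 2.57 CPM (13.5-fold, adjusted p = 2.3e-17), and CH25H, which makes an oxysterol, at 1.196, 3.16 and 2.27 CPM against 0, 0.162 and 0.0558 CPM. In each of these genes all Sph.WT values lay above all L.O values. The largest falls were those of NPC1L1, the intestinal sterol transporter, CYP46A1, the neuronal sterol hydroxylase, and ABCG4. NPC1L1 and CYP46A1 were at 0 to 0.147 and 0 to 0.0368 CPM against 3.35 to 3.86 and 0.756 to 1.00 CPM. ABCG4 was at 0.425 to 0.598 against 11.2 to 14.3 CPM. A level of 3 counts is 0.110 to 0.213 CPM in the Sph.WT and 0.162 to 0.168 CPM in the L.O libraries. The sizes of the changes of NPC1L1, CYP46A1 and CH25H, near 0 in 1 of the sets, are therefore uncertain. The exporters did not move together, since ABCA1 was 6.82-fold higher and ABCG1 8.37-fold lower. SREBF1 was 3.97-fold higher at 254 ± 24.8 CPM (SD, n = 3) and ACLY 1.61-fold lower at 495 ± 34.4 CPM.

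The comparison of capsule libraries with all 6 spheroid libraries also called RABGGTB, which was higher (log2 0.73 ± 0.09, adjusted p = 0.0140). LRP1, a large endocytic receptor, was lower at 67.9, 77.8 and 64.1 CPM against 139.6 to 154 CPM in the L.O and 197 to 216 CPM in the Sph.WT libraries (log2 -1.33 ± 0.18, adjusted p = 0.0150), and STARD3, a sterol carrier of late endosomes, was lower too (log2 -0.65 ± 0.12, adjusted p = 0.0267). In these 3 genes the capsule libraries lay on 1 side of both spheroid sets.

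The sources used here do not say whether counting used strand, so where 2 genes overlap, the reads of 1 cannot be told from those of the other. Besides ACAT2 and CYP51A1 this touches GGPS1, with 41.0% of its joined exons overlapped, FDPS (18.6%, and 8 pseudogenes), HMGCS1 (14.95%) and IDI1 (14.8%). HSD17B7 has 2 pseudogenes. The joined exons of MSMO1, SQLE, DHCR7, INSIG1 and INSIG2 overlap no other annotated gene.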

How the data were processed

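RNA from 9 libraries was sequenced after TruSeq preparation, per the labels' protocols. The authors deposited raw counts per gene in 1 table of 17911 Entrez identifiers, of which 17674 matched a symbol. The submitters' processing notes name hg38, featureCounts and limma. The suffix of the capsule and L.O column names holds the word subread, the name of an aligner. The names of the Sph.WT libraries hold no such word. Gene annotation and use of strand are not given in the sources used here. Counts were filtered with filterByExpr, scaled by TMM and tested by edgeR 4.0.16 (R 4.3.3) with the quasi-likelihood test and Benjamini-Hochberg adjustment over 16985 genes, calling genes at an adjusted p under 0.05. Levels are TMM-scaled CPM, and lengths are the joined exons of GENCODE release 29. The main comparison took capsules against all 6 spheroid libraries. A second fit gave each column set its own mean, for the spheroid sets against each other and capsules against each. Scripts were tested on simulated data. The pathway members, the lists and the rules were chosen with earlier results of these data known. Named genes are all 28 members and, of the other pathway lists, the 3 called genes with the largest rise and the 3 with the largest fall in a comparison, and ABCA1, SREBF1 and ACLY in any case. NR1H3, and ABCG1 between the spheroid sets, were named after their values were seen. 1 gene that the rule names is not reported here. Alternatives were RLE scaling, library totals, no filter, DESeq2 1.42.0, limma 3.58.1 (voom), a replicate block, each spheroid set alone, fits on 6 libraries, a mean per set, and leaving out each library. Library totals, the motif CACNCCAC and all alternatives for capsules against each set were chosen after seeing the data. With 13212665 to 33263076 counts per library, each of the 28 genes had at least 161 counts in every library.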

Additional observations from a re-analysis of the deposited data

How the results depend on the processing

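For capsules against all 6 spheroid libraries (639 genes called, 2 of the 28 higher), the number of genes called was 4025 with DESeq2, 359 with library totals, 7970 with only the L.O libraries, 13909 with only the Sph.WT libraries, 12643 with a mean per set and 0 to 604 with 1 library left out. Without capsule replicate 1, 2 or 3 it was 0 in edgeR (2448, 2620 and 2507 at an unadjusted p under 0.05), without L.O replicate 2 or 3 it was 287 or 409, and without Sph.WT replicate 1, 2 or 3 it was 154, 240 or 207. Of the 28 genes, 1 was higher with RLE, limma, no filter or library totals, 17 with only L.O, 7 with only Sph.WT, 9 with a mean per set and 0 to 1 with 1 library left out. Lower were 4 with DESeq2, 4 with only L.O, 19 with only Sph.WT and 10 with a mean per set.

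Sign changes are named here only for genes called before or after the change. With only L.O these were IDI1 (0.83), FDPS (0.32), CYP51A1 (0.55), MSMO1 (0.92), HSD17B7 (0.34), EBP (0.29), DHCR7 (0.43) and SREBF2 (0.30). With only Sph.WT they were HMGCS1 (-0.51), FDFT1 (-0.25) and INSIG1 (-0.36). With library totals they were ACAT2 (-0.022), GGPS1 (-0.36) and NSDHL (-0.31) between Sph.WT and L.O. Between capsule and Sph.WT they were FDFT1 (0.023) and SREBF2 (0.049). Called or not, library totals changed the sign of 3 genes between Sph.WT and L.O. They did so for 4 between capsule and Sph.WT and 2 between capsule and L.O. Between capsule and L.O the genes lower were 6 with RLE, 5 with DESeq2, 6 with library totals and 1 to 3 with 1 library left out. The cause was not tested.

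Same-numbered libraries did not deviate together (correlations -0.19 to 0.06), so the numbers were not taken to pair them. With a replicate block, edgeR called 0 genes between capsules and all spheroids (2856 unadjusted), 0 of the 28 higher (4 unadjusted), 7134 between capsule and L.O, 14350 between Sph.WT and L.O and 14243 between capsule and Sph.WT.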
